A study of Homo sapiens with 2 samples.

Results

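The peaks described here are those that a KMT2D chromatin immunoprecipitation in OCI-LY7 placed in windows laid over the 4 human HOX gene clusters. OCI-LY7 is an established line from a diffuse large B-cell lymphoma of the germinal centre type, and its genotype is labelled wt. KMT2D (MLL4) is a histone methyltransferase that acts on lysine 4 of histone H3, chiefly at enhancers. The study made 1 KMT2D library, using an antibody made in-house to the N-terminal part of the protein, and 1 input library without antibody. Both came from the same line under the same growth and fixation, and the input was not analysed here. A peak was taken as a member when its highest point lay in 1 of 4 windows on hg19. The windows were set by position and no measured value entered the rule, but they were chosen with earlier results of these data known. They were chromosome 7 from 27080000 to 27300000 for HOXA, chromosome 17 from 46560000 to 46860000 for HOXB, chromosome 12 from 54280000 to 54500000 for HOXC, and chromosome 2 from 176900000 to 177100000 for HOXD. Of the 24824 listed peaks, 16 were members. The HOXA window held 5, the HOXB window 6, the HOXC window 5 and the HOXD window 0. With 1 library there was no replicate, no value had a spread between samples, and no p-value was computed. The sequencing depth is unknown.

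HOX genes encode homeodomain transcription factors that give cells their position along the body axis of the embryo. They stand in tandem in 4 clusters that arose by duplication, and the order of the genes along the DNA follows the order in which they act along the axis. In blood formation, HOXA9, HOXA5 and HOXB4 are known for their activity in stem and progenitor cells, and the genes are mostly turned down as cells mature. HOXC4 is also known in activated B cells, where it acts on the gene of the antibody-mutating enzyme AID. Polycomb complexes hold silent HOX clusters under methylation of lysine 27 of histone H3, and methyltransferases of the KMT2 family oppose them. The windows were set over these developmental genes as a contrast to B-cell loci, though HOXC4 has the B-cell role given above. Other genes that may lie in the windows were not listed.

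The GRCh38 gene table of RefSeq lists 39 HOX genes, of which 11 are HOXA, 10 HOXB, 9 HOXC and 9 HOXD genes. With rising coordinate, the HOXA cluster passes HOXA5 and HOXA9 on the way to HOXA13, and the HOXB cluster runs from HOXB1 through HOXB4 and HOXB7 to HOXB13. The HOXC cluster runs the other way, from HOXC13 down to the group of HOXC4, HOXC5 and HOXC6, and so does the HOXD cluster, from HOXD13 through HOXD9 to HOXD1. EVX1, a homeobox gene next to the HOX genes, lies beyond HOXA13, and its relative EVX2 lies beyond HOXD13. HOTTIP, a long noncoding RNA, stands between HOXA13 and EVX1, and HOTAIR, another, stands between HOXC12 and HOXC11. This order is from another build than that of the peaks, so no peak was placed at a gene, a promoter, an exon or an intron.

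The clusters hold related microRNA genes as well. MIR196 genes tie the clusters of the windows with listed peaks to each other, and MIR10 genes tie HOXB to HOXD. MIR196B lies in the HOXA cluster between HOXA9 and HOXA10, MIR196A1 in the HOXB cluster between HOXB9 and HOXB13, and MIR196A2 in the HOXC cluster between HOXC10 and HOXC9. MIR10A lies in the HOXB cluster between HOXB4 and HOXB5, and its paralog MIR10B in the HOXD cluster between HOXD8 and HOXD4. The mature sequences are from RefSeq (GRCh38.p14), 5′ to 3′, with the seed, bases 2 to 8, in capitals. None of those printed is from the HOXD cluster.
hsa-miR-196a-5p (HOXB and HOXC clusters): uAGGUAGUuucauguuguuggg
hsa-miR-196b-5p (HOXA cluster): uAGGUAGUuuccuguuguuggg
hsa-miR-10a-5p (HOXB cluster): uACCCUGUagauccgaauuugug
The miR-196 forms from 3 clusters have the same seed and differ at 1 base, A12C from miR-196a to miR-196b, counted from 1 at the 5′ end.

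Listed KMT2D peaks thus lay in 3 of the 4 windows, and none lay in the HOXD window. Among windows of the same length along the same chromosome, at least 1 peak was found in 44.6% on chromosome 7 (HOXA), 78.7% on chromosome 17 (HOXB), 51% on chromosome 12 (HOXC) and 43.9% on chromosome 2 (HOXD), so both states were common. The windows were not checked against an hg19 annotation. The map of peak heights shows where the peaks stood along the windows.

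**Figure D1:**
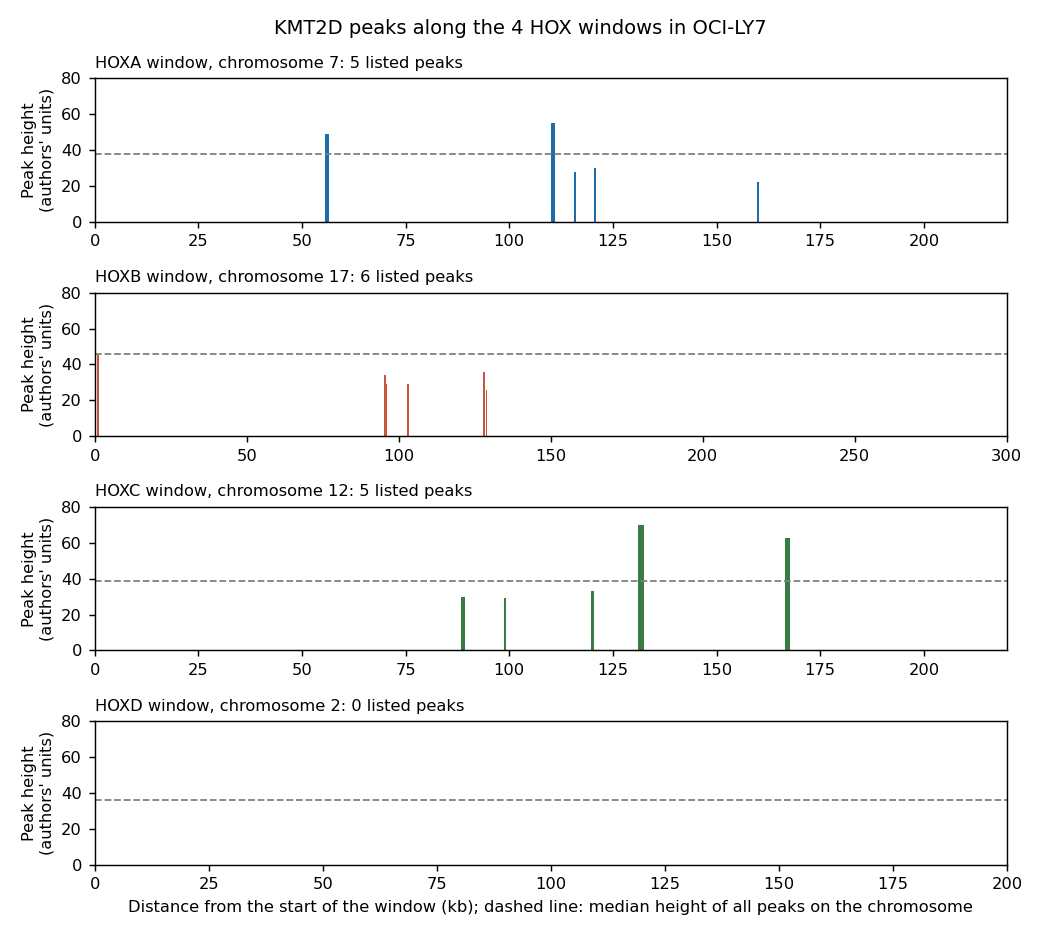
Height of each listed KMT2D peak (authors' units) against its distance from the start of the window (kb), for the HOXA, HOXB, HOXC and HOXD windows. Bars narrower than 0.6 kb are drawn 0.6 kb wide, and dashed lines mark the median height of all listed peaks on the chromosome. The HOXA and HOXC windows each have 2 bars above their line, all 6 HOXB bars are below theirs, and the HOXD panel is empty.

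In the HOXA window, peaks began 55.5 kb from its start and ended 159.9 kb from it. The tallest lay on chromosome 7 at 27190121 to 27190912, was 791 bp wide and had a height of 55 in the authors' units. That was higher than 71.8% of the peaks on chromosome 7, whose median height was 38. The widest lay alone at 27135541 to 27136553, with a width of 1012 bp and a height of 49. These were the 2 HOXA peaks above the median of the chromosome. Their significance values, which look like p-values on a log10 scale and were nowhere above -15 in the list, were both -40.9.

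The other HOXA peaks were low. A peak at 27195566 to 27196121 had a height of 28, and one at 27200391 to 27200869 had a height of 30. The first of these lay 4.65 kb beyond the tallest peak and the second a further 4.27 kb on, and the 3 peaks together spanned 10.7 kb. The last peak, at 27239733 to 27239881, was 148 bp wide with a height of 22 and a significance value of -16.9, close to the weakest value listed. Its height exceeded that of 9.33% of the peaks on the chromosome, where the lowest listed height was 17.

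No peak was listed over 230.7 kb below the first HOXA peak and over 462 kb above the last. These stretches were longer than 87.7% and 94.1% of the gaps between neighbouring peaks on chromosome 7, whose median was 23.8 kb. Such shares count gaps and not bases, so the many short gaps raise the rank of any long one. Of 718 windows of 220 kb on chromosome 7, 55.4% held 0 peaks, so long stretches without a listed peak were common there. Nearest outside the window were peaks at 26903837 to 26904878 with a height of 54 and at 27701909 to 27702955 with a height of 66. The first was taller than 4 of the 5 HOXA peaks, and the second was taller than all 5.

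In the HOXB window, no peak was above the chromosome 17 median of 46. The tallest, at 46560810 to 46561364 with a height of 45, lay 1.1 kb from the start of the window. It was separated from the other HOXB peaks by 93.9 kb, and it was the 1 member that left when the window was narrowed by 20 kb on each side. The remaining 5 lay within 33.4 kb.

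These 5 formed 2 groups. In the first, peaks at 46655306 to 46655530 and 46655696 to 46655877 had heights of 34 and 29 and lay 0.166 kb apart. Another peak followed at 46662891 to 46663160, again with a height of 29. The second group was a peak of 715 bp at 46687726 to 46688441 with a height of 36, and a peak of 124 bp at 46688604 to 46688728 with a height of 26. The gap between this pair was 0.163 kb, so each group held a pair of listed peaks that almost touched. Merging peaks under 500 bp apart left 4 HOXB peaks.

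The significance values of the HOXB peaks were -28.01, -21.4, -17.7, -19.4, -21.5 and -15.7 in order of position, so that 3 of the 6 were above -20. Among the other peaks of chromosomes 7, 12 and 17 this share was 24.7%, and in HOXA and HOXC it was 1 of 5 and 0 of 5. The share on chromosome 17 alone was not computed, so the HOXB share cannot be set against its own chromosome. The lowest listed height on chromosome 17 was 23, and the narrowest HOXB peak, of height 26, was taller than 1.91% of the peaks there. Beyond the last HOXB peak no peak was listed for 219.4 kb, a stretch longer than 95.2% of the gaps on chromosome 17. Just outside the window lay peaks of height 42 at 46518625 to 46519127 and of height 44 at 46908147 to 46908720.

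The HOXC window held the tallest and widest peaks of the 4 windows. A peak on chromosome 12 at 54411145 to 54412505 was 1360 bp wide and reached a height of 70, higher than 83.6% of the peaks on that chromosome. A second, at 54446597 to 54447740, was 1143 bp wide and reached 63. Their significance values were -52.4 and -43.2, the strongest among the members. Both lay toward the high-coordinate side of the window, and the chromosome median was 39.

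The other HOXC peaks had nearly equal heights and unequal widths. They lay at 54368269 to 54369246 with a height of 30, at 54378643 to 54378792 with a height of 29, and at 54399716 to 54400239 with a height of 33. Widths were 977, 149 and 523 bp in the same order. The first of these was thus nearly as wide as the widest HOXA peak at a much lower height. From the first to the last highest point the HOXC peaks spanned 77.9 kb. No peak was listed over 217 kb below them and 134.6 kb above them, stretches longer than 90.5% and 84.8% of the gaps on chromosome 12. Long stretches without a listed peak thus bordered the HOXC peaks, as they did those of HOXA and, on the high-coordinate side, those of HOXB. On chromosome 12, 49.0% of 606 windows of 220 kb held 0 peaks. On chromosome 17, 21.3% of 268 windows of 300 kb did, so such stretches were not particular to the HOX windows. The nearest peaks outside the HOXC window had heights of 33, at 54150874 to 54151313, and 81, at 54582366 to 54583243.

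In the HOXD window no peak was listed, and 267 kb separated the peaks on either side of it, a gap longer than 87.9% of those on chromosome 2. An empty window of 200 kb fixes a gap of at least that length. On chromosome 2, 56.1% of 1213 windows of 200 kb held 0 peaks. The peak before the window, at 176866517 to 176867227, had a height of 44, and the peak after it, at 177133878 to 177134676, had a height of 38. They lay 32.9 and 34.1 kb from its edges. Both were above the chromosome 2 median of 36, and widening the window by 50 kb on each side took in both. A stretch without a listed peak does not show that KMT2D was absent: the threshold of the caller is not stated, and the lowest height it listed on chromosome 2 was 17.

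Over the 16 members, 4 peaks stood above the median height of their chromosome, which is 25% (exact binomial 95% interval 7.27 to 52.4%). Among the 3912 other peaks of chromosomes 7, 12 and 17, the share was 49.0%, inside that interval. The 4 tall members had heights of 49 to 70, widths of 791 to 1360 bp and significance values of -52.4 to -40.9. The other 12 had heights of 22 to 45, widths of 124 to 977 bp and significance values of -28.01 to -15.7. The height ranges follow from this split, and a wider break than that from 45 to 49 lay between 36 and 45. Wider members were also taller, so these ranges do not show separate classes of peak.

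**Figure D2:**
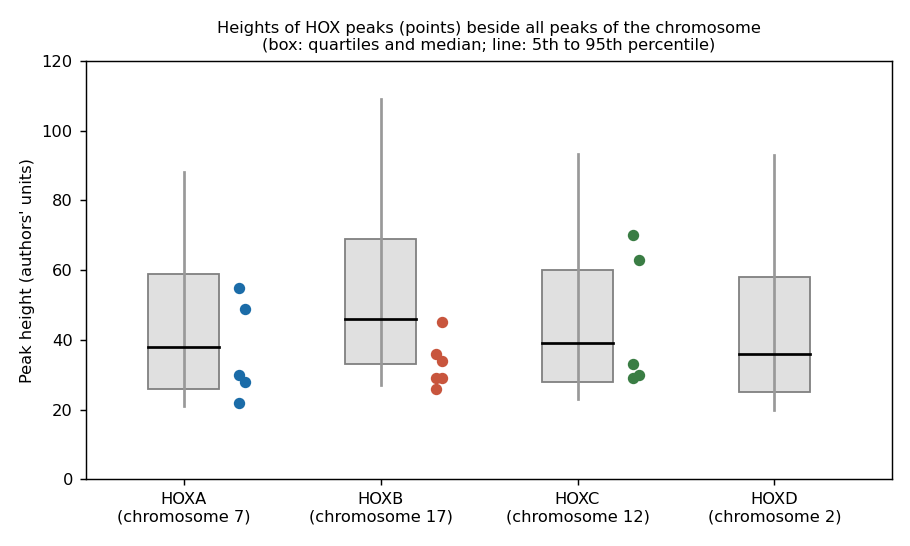
Height (authors' units) of each peak in the HOX windows as points, beside all listed peaks of the same chromosome, drawn as a box from the lower to the upper quartile with the median and a line from the 5th to the 95th percentile. Of the HOX peaks, 4 lie above the median of their chromosome, 2 in HOXA and 2 in HOXC; HOXD has no point.

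The median height of the members was 31.5 (order-statistic 95% interval 29 to 49), against 42 (40 to 43) for the other peaks of these chromosomes. The median width was 538.5 bp (181 to 977 bp) against 614 bp (592 to 639 bp). For both measures the interval of the members covered the value of the other peaks, so with 16 peaks a difference could not be told from counting error. Wider members were taller, with a Spearman correlation of 0.81 across the 16 peaks, beside 0.85 across the 3912 others. Peaks of 1 library are not independent, and both correlations only describe the list.

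Several other features of the members lay near the background of the list. A significance value above -20 was found for 4 of 16 members (25%, interval 7.27 to 52.4%) and for 24.7% of the other peaks. A width of up to 200 bp was found for 4 of 16 and for 19.9% of the others. The highest point lay in the lower-coordinate part of the peak, before its middle, for 9 of 16 (56.2%, 29.9 to 80.2%) and for 56.6% of the others. By window this was 2 of 5 in HOXA, 5 of 6 in HOXB and 2 of 5 in HOXC.

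After stitching of peaks up to 12500 bp apart, 12 of the 16 members (75%, 47.6 to 92.7%) had a neighbour, beside 64.4% of the other peaks of chromosomes 7, 12 and 17. The groups were small. The largest had 3 peaks, once in HOXA and once in HOXB, and the longest, in HOXC, spanned 12.8 kb with 2 peaks. On chromosomes 1 to 22 and X, 1214 of the 4962 stitched clusters had more than 3 peaks. In all, the 16 members made 9 runs, of which 4 were lone peaks, and gaps between runs were as short as the 20.9 kb in HOXC, which is the median gap of chromosome 12.

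Density was compared with the rest of the same chromosome, because the lowest listed height differed between chromosomes. The HOXA window had 22.7 peaks per Mb (exact Poisson 95% interval 7.38 to 53.04) and the rest of chromosome 7 had 7.22, a ratio of 3.15 (exact conditional interval 1.02 to 7.37). Among the ratios to the rest of the chromosome, this alone had an interval that did not reach 1. The interval takes peaks as independent, but listed peaks clumped. On chromosome 7, 55.4% of windows of 220 kb held 0 peaks while the fullest held 34, and 3 of the 5 HOXA peaks formed 1 run. The interval is therefore likely too narrow, and its lower bound does not show an excess. The interval reached 1 with the window widened by 50 kb on each side, at 2.16 (0.701 to 5.06). It also did at a common minimum height of 23, at 2.92 (0.794 to 7.503), and among the highest-scoring 50% of peaks, at 2.64 (0.319 to 9.58). It stayed above 1 by overlap, at 3.15 (1.02 to 7.37), and after merging, at 3.71 (1.20 to 8.68). With the window narrowed by 20 kb on each side it did too, at 3.85 (1.25 to 9.01). The HOXC window also had 22.7 peaks per Mb, against 9.804 on the rest of chromosome 12, with a ratio of 2.32 (0.751 to 5.42).

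The HOXB window had 20 peaks per Mb (7.34 to 43.5), nearly the 18.1 of the rest of chromosome 17, and the ratio was 1.105 (0.405 to 2.41). Its peaks were narrow, and they covered 0.689% of the window against 1.24% of the rest of the chromosome, a ratio of 0.554. In HOXA and HOXC, covered bases gave ratios of 2.67 and 2.75. HOXD had a density of 0 with an upper bound of 18.4 peaks per Mb, above the 7.08 of the rest of chromosome 2, so the ratio interval ran from 0 to 2.61.

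Over all 4 windows, 16 peaks were listed where the densities of their own chromosomes give 10.6, a ratio of 1.51 (0.864 to 2.45). The clusters could not be told apart from each other by density. HOXA over HOXB was 1.14 (0.274 to 4.47), and HOXD over HOXA was 0 with an upper bound of 1.20. HOXD over HOXB was 0 with an upper bound of 1.27. These intervals cover the counting of peaks only and take peaks as independent. Densities were not corrected for copy number, for which no value was analysed here.

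**Figure D3:**
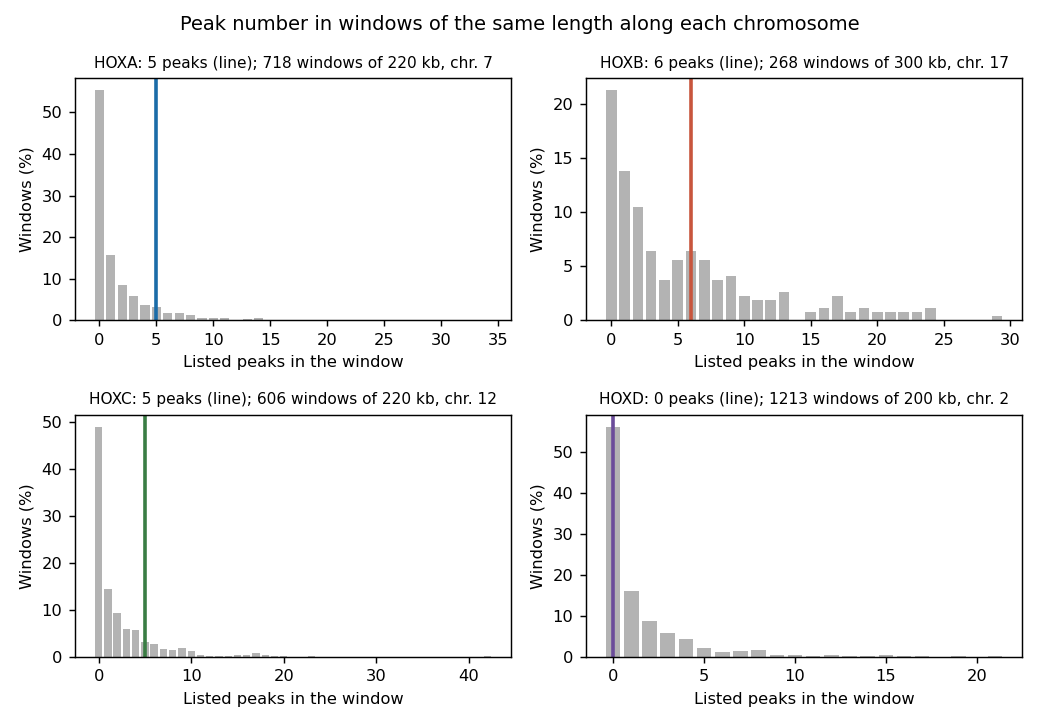
Share of windows (%) by the number of listed peaks they hold, for windows of the length of each HOX window laid end to end along its chromosome, with the HOX window itself marked by a coloured line. The lines for HOXA and HOXC lie above the medians, which are 0 and 1. At least as many peaks were held by 10.9% and 15.3% of windows. The line for HOXB lies in the body of the distribution, and that for HOXD lies on the tallest bar, at 0 peaks.

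Windows of the same length along the same chromosome gave a second view. On chromosome 7, 10.9% of 718 windows of 220 kb held 5 or more peaks, as the HOXA window did. On chromosome 12 the share of windows with 5 or more was 15.3% of 606. On chromosome 17, 38.8% of 268 windows of 300 kb held 6 or more, so the HOXB number was common there. The absence of listed peaks in HOXD was the most frequent state on chromosome 2, where 56.1% of 1213 windows of 200 kb held 0 peaks.

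The surroundings of the clusters differed. Within 0.5 Mb on each side, 3 peaks were listed around HOXA (3 per Mb), 18 around HOXB (18 per Mb), 32 around HOXC (32 per Mb) and 2 around HOXD (2 per Mb). The HOXA window, with 5 peaks against 3, was 7.58 times as dense as these flanks (exact conditional interval 1.47 to 48.8). This interval takes peaks as independent, though 3 of the 5 formed 1 run. The flank widths were also set after the peaks had been seen, so the interval does not test an excess. Against flanks of 1 Mb on each side the ratio fell to 2.53 (0.733 to 7.06), since 18 peaks lay there. HOXB and HOXC did not stand out from their 0.5 Mb flanks, with ratios of 1.11 (0.361 to 2.92) and 0.710 (0.216 to 1.84).

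**Figure D4:**
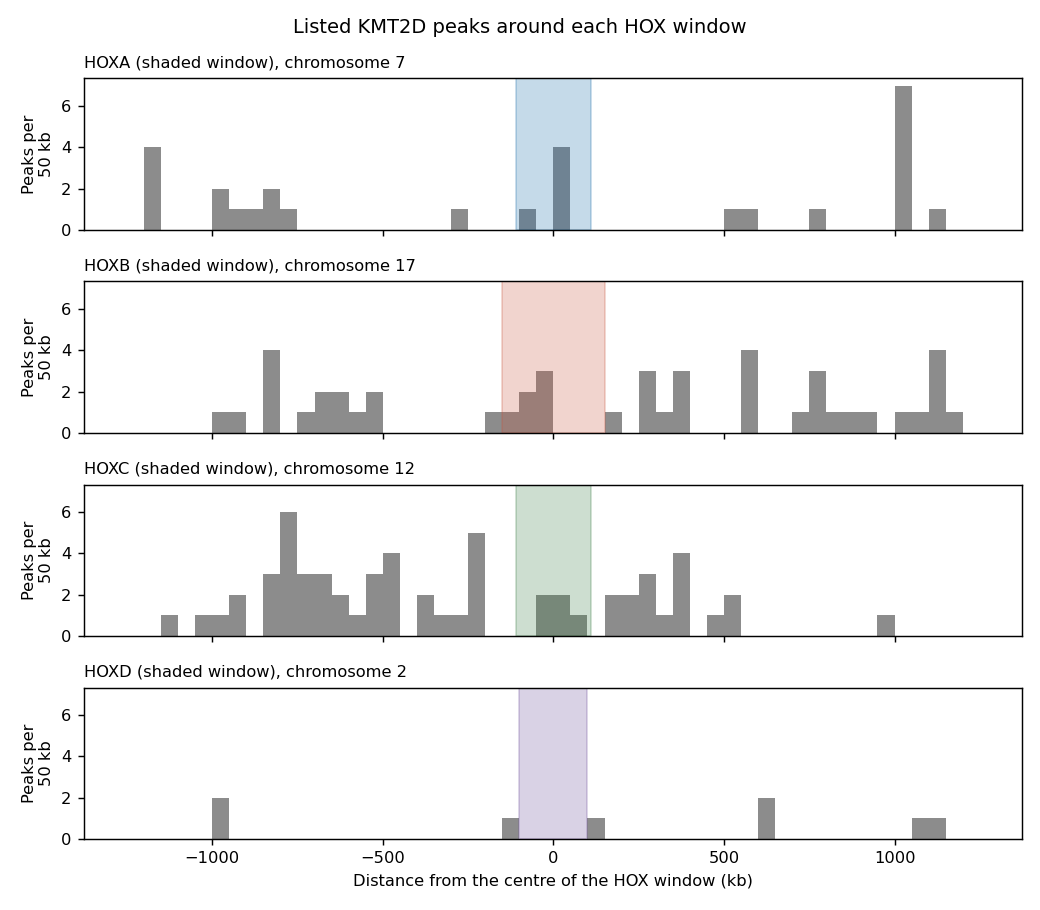
Number of listed KMT2D peaks per 50 kb against the distance from the centre of each HOX window (kb) on either side, with the window shaded. Within 0.5 Mb on each side there are 3 peaks around HOXA, 18 around HOXB, 32 around HOXC and 2 around HOXD.

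HOXC and HOXA thus had the same density and different surroundings. The 32 peaks flanking HOXC within 0.5 Mb reached a height of 134, against 70 inside the window. Around HOXB the tallest within 0.5 Mb was 89, against 45 inside, and around HOXA it was 66 against 55. A maximum rises with the number of peaks, so these maxima are not like for like. Median heights in the 0.5 Mb flanks were 38.5 against 33 inside for HOXC and 44 against 31.5 for HOXB. For HOXA the flank median was 54, over 3 peaks only, against 30 inside. For HOXD, 7 peaks lay within 1 Mb on each side (3.5 per Mb) with heights up to 102, and the ratio of the window to these flanks was 0 with an upper bound of 6.94.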

How the data were processed

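The deposited peak list of the KMT2D library has 11 columns and no header, so columns were identified from their values. The submitters' processing notes name CASAVA 1.8.2 and the build hg19. Not given in the sources used here are the aligner, the peak caller with its threshold, and how the input entered. Whether positions count from 0 or 1 is not stated. In all 24824 rows the width equalled end minus start with a tolerance of 0 bp. Height is the authors' deposited signal, a whole number of unstated normalization. The score and the significance value are the authors' deposited columns of unstated scale. The deposited percent column gives the place of the highest point between start and end. All were used only within this list.

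The HOX windows, their genes and the comparisons were chosen with earlier results of these data known; the flank widths and the summed 4-window comparison were added after the members' peaks had been seen. All 16 members are named, as the naming rule set for 40 or fewer. Chromosome density was peaks divided by the distance from the first to the last listed peak, less the window, which still includes unassembled sequence. Same-length windows were laid from the HOX window in both directions. Intervals are at 95% and cover counting error over peaks only. They take peaks as independent, and since listed peaks clumped, those of densities are likely too narrow. Functions were tested on simulated data. Alternatives were membership by overlap, the highest-scoring 50% of peaks, a common minimum height, merging under 500 bp, windows narrowed by 20 kb or widened by 50 kb, covered bases, and stitching at 5 and 25 kb. Genes were taken from RefSeq by symbol, for order only; no hg19 sequence or annotation was used here, and the placement of peaks at genes was not analysed here. Python 3.11.15 was used with scipy 1.17.1, numpy 2.4.6, matplotlib 3.10.9 and pandas 2.3.3.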

Additional observations from a re-analysis of the deposited data

How the results depend on the processing

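A count was taken as moved when it changed by over 1.5 times, and another value when it left its own 95% interval. Of 56 alternative values, 48 stayed and 8 moved. With few peaks the intervals are wide, so a value could stay and still differ much. The HOXA density ratio of 2.16 with widened windows counted as stayed beside 3.15. Among the highest-scoring 50% of peaks 5 members were left, namely 2 in HOXA, 1 in HOXB and 2 in HOXC, the density ratio of HOXB was 0.307, and median height and width were 55 and 1012 bp. These counts fall by construction, since fewer peaks enter, and the medians rise with the score. Widening the windows by 50 kb brought 2 peaks into HOXD. Stitching at 5 kb gave 43.8% of members a neighbour. The share of other peaks was not computed at 5 kb, so this value has no background beside it. The HOXB density ratio lay below 1 after merging (0.867) and in covered bases (0.554), and its interval held 1 under each alternative that gave one. No paired analysis was possible because there is 1 library with peaks. The unknown depth limits what a stretch without a listed peak can show.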
